A study of Mus musculus with 5 samples.

Results

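The interval between the genes Slc30a5 and Pik3r1 on mouse chromosome 13 (mm10, chr13:100833481-101680760, 847.3 kb) was examined for contacts with a bait close to the start of Pik3r1. Its members were set by position and not by reads: a restriction fragment belonged to it when the position listed for it lay between the lower and the higher of those coordinates. This gave 2059 of 292200 fragments listed for chromosome 13, and none of the 2059 was missing from any library. The near edge lay 85.6 kb from the bait at 101766365, and the far edge 933 kb from it. Pik3r1 runs toward lower coordinates, so the interval lies downstream of the gene. It holds no annotated protein-coding gene, but 10 long non-coding RNA genes and 6 pseudogenes overlap it, so it is a desert of coding genes only.

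Contacts were measured by 4C-seq, in which crosslinked chromatin is cut, ligated and cut again, and the DNA joined to a chosen bait fragment is amplified and sequenced. The first enzyme was DpnII, which cuts at GATC, and the second was Csp6I, which cuts at GTAC. The 3 groups were DP thymocytes (CD4+/CD8+ double-positive T cell precursors) from wild-type C57/Bl6 mice aged 4 weeks with 1 library, and muscle of wild-type (WT) and GRko C57/Bl6 mice aged 10 to 12 weeks with 2 libraries each. GRko is taken to mean that the glucocorticoid receptor gene was knocked out, which rests on knowledge of the study and not on the labels. Values of a pair of muscle libraries are given with replicate 1 first. The labels used here name neither the driver of the deletion nor the cells that lack the receptor, and counts on chromosome 13 cannot check the genotype or the cell type. Muscle is a whole tissue of several cell types, whereas DP thymocytes are a single stage of one lineage. Tissue and age differed together and cannot be told apart, and no label ties a replicate to an animal, so p-values cover only the differences among these libraries, which may be technical.

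The product of Pik3r1 is p85α, a regulatory subunit of phosphoinositide 3-kinase, which holds the catalytic subunit in check and brings it to activated receptors. In muscle this kinase relays insulin signals, and in T cells it acts downstream of antigen and costimulatory receptors. Slc30a5 encodes a zinc transporter of the secretory pathway. Intervals poor in coding genes can hold regulatory elements that act on a distant promoter, and 4C-seq reports how often such DNA was ligated to the bait, not whether it acts on the gene.

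Reads on chromosome 13 ran from 1317351 in GRko replicate 2 to 8993436 in thymocytes. Between 10 kb and 1.5 Mb from the bait, which is the total for every share given here, they ran from 634064 to 4902222 on 1062 to 4172 covered fragments. A fragment is called covered when it has at least 1 read. Amplification copies of a ligation product could not be told from separate products, so the count of covered fragments is given beside the reads. The libraries of 29 nt reads were the thymocyte library and the first replicate of each muscle genotype, and the second replicates had 23 nt reads.

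Fragments within the start regions of the non-coding RNA genes 4922502H24Rik and Gm41042 show what a single measured unit of this interval is. The listed position of a fragment is the midpoint between neighbouring GATC sites, as 344 of 344 neighbouring pairs in promoter windows of this chromosome showed. The fragments are given on the plus strand of GRCm38.p6 (RefSeq), with GATC and GTAC in capitals. The first has both enzymes' sites and the other 2 have no GTAC.
4922502H24Rik fragment, chr13:101397571-101397744: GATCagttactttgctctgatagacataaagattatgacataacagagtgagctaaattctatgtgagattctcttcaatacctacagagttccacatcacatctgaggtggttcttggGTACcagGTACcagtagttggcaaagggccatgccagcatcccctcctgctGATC
4922502H24Rik neighbouring fragment, chr13:101397741-101397765: GATCtagggtttcttgagttgGATC
Gm41042 fragment, chr13:100996965-100997013: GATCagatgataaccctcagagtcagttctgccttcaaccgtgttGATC

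The first of these fragments, 170 bp from site to site, held 1212 reads in thymocytes and 0 in each of the 4 muscle libraries. Its neighbour of 21 bp, which shares a GATC with it, held 0 reads in all 5 libraries. The Gm41042 fragment of 45 bp held 50 reads in thymocytes and 71 in GRko replicate 1, and 0 in the other 3 libraries. Short fragments of this kind were read less often throughout the interval, as the classes of length given further on show.

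RefSeq start regions (250 bases before to 50 after a gene's start) gave 9 windows wholly within the interval, for 8 of its 16 genes. Those of Gm36427, 5930438M14Rik and 4922502H24Rik are shown as examples of windows whose fragments held over 2000 reads in thymocytes and 0 in both GRko libraries. They run 5′ to 3′ on the gene's strand, with GATC in capitals.
Gm36427, chr13:101305839-101306138, minus strand: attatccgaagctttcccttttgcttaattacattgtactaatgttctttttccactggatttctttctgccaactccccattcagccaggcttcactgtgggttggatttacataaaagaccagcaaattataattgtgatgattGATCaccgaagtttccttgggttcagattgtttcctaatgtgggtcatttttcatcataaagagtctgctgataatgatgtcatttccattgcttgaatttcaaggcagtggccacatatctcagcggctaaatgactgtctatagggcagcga
5930438M14Rik, chr13:101231877-101232176, plus strand: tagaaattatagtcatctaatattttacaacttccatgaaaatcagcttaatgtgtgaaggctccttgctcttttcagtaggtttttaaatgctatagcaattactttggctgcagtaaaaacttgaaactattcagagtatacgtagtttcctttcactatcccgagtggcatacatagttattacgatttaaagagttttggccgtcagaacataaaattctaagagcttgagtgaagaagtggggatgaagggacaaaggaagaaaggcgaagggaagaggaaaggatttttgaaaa
4922502H24Rik, chr13:101397531-101397830, minus strand: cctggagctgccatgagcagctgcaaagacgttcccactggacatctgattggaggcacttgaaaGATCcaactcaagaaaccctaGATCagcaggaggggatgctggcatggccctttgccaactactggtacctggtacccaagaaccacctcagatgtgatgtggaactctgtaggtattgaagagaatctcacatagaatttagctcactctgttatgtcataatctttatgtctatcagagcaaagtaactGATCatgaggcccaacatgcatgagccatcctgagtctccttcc

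The 2 fragments over the Gm36427 start held 4157 reads in thymocytes, 13 and 0 in the WT pair and 0 and 0 in the GRko pair. The fragment over the 5930438M14Rik start held 2493 reads in thymocytes and 0 in each muscle library. The 4 fragments over the 4922502H24Rik start held 5426 reads in thymocytes, 1693 and 2 in the WT pair and 0 and 0 in the GRko pair. These 3 windows were chosen after their values were seen. The Gm36553 window at chr13:101611565-101611864 is another of that kind, with 3577 reads in thymocytes, 330 and 49 in the WT pair and 0 and 0 in the GRko pair. GRko replicates 1 and 2 covered only 25.1% and 9.57% of the interval's fragments, so a count of 0 in both was common for a fragment.

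Over all 9 windows, 17 fragments overlapped. Of these, 15 were covered in thymocytes, 6 and 7 in the WT pair and 6 and 2 in the GRko pair. Of all 2059 fragments of the interval, 72.4% were covered in thymocytes. The WT pair covered 40.2% and 15.2% of them and the GRko pair 25.1% and 9.57%, an order that follows depth. In the Gm41042 window thymocytes were not the highest in reads, with 656 against 1338 and 0 in the WT pair and 73 and 800 in the GRko pair. A GATC lay in 5 of the 9 windows and a GTAC in 5, against 48.0% and 35.8% of 32851 mouse windows of the same length. Both motifs read the same on either strand and cannot overlap each other.

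The interval took a like share of the reads in both muscle genotypes and a larger one in thymocytes. It held 15.1% and 16.4% of the reads within 1.5 Mb in WT replicates 1 and 2, and 15.7% and 14.0% in GRko replicates 1 and 2. In thymocytes it held 30.3%, with a 95% Wilson interval of 30.3 to 30.3 that treats amplification copies as independent and is therefore narrower than the true error. The 4 muscle libraries overlapped between genotypes, and the thymocyte library stood above all of them. In raw reads these shares were 437510 and 219677 in WT, 266999 and 89047 in GRko muscle, and 1485401 in thymocytes.

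**Figure D1:**
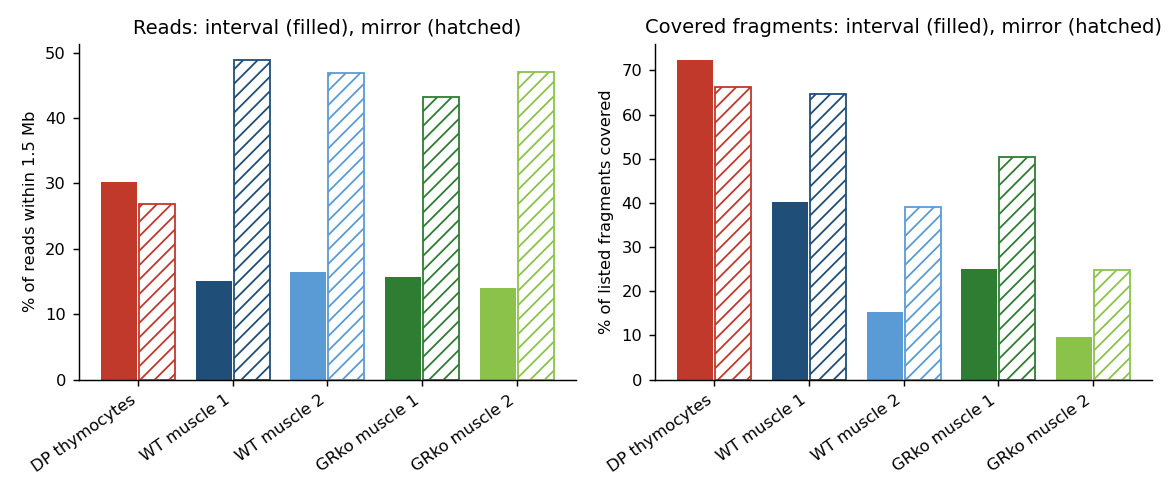
Left, percent of the reads within 1.5 Mb of the bait that fell in the interval. Right, percent of its listed fragments that were covered, which follows depth. Each library has a filled bar for the interval and a hatched bar for the same distances on the other side of the bait. Thymocytes held 30.3% of reads in the interval and the 4 muscle libraries 14.0% to 16.4%.

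Setting GRko against WT muscle asks whether contacts with the interval differ where the receptor is missing. The share of reads was 14.9% ± 1.18 in GRko and 15.8% ± 0.916 in WT muscle (SD, n = 2 each), a difference of -0.906 percentage points. The two-sided p from an exact permutation test was 0.667, where 0.333 is the smallest that 2 against 2 libraries allow. Between the 29 nt libraries the difference was 0.575 points, and between the 23 nt libraries -2.39. The 2 pairs thus differed in direction. Read length, replicate number and depth differ together between them and cannot be told apart. With a cap on reads per fragment the difference was 0.202. The difference lay within the spread between replicates, which does not show that the genotypes are alike.

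The comparison of thymocytes with WT muscle asks how contacts with the interval differ between the tissues. The thymocyte share of reads exceeded the WT mean by 14.5 points (exact two-sided permutation test, p = 0.333, which is the lowest value possible for 1 library against 2; 0.583 adjusted over 7 tests). Against all 4 muscle libraries the difference was 14.97 points (exact p = 0.2, again the smallest possible). With all reads of chromosome 13 as the total, the interval held 16.5% in thymocytes, 7.61% and 8.51% in the WT pair and 8.60% and 6.76% in the GRko pair. A share is part of a whole, so a higher share here cannot be told apart from a lower share elsewhere.

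Covered fragments gave the same order of tissues, with more spread in muscle. Of the 2059 fragments, 72.4% were covered in thymocytes (95% Wilson interval 70.4 to 74.3), 40.2% and 15.2% in the WT pair and 25.1% and 9.57% in the GRko pair. These values followed the depth of the libraries. As a share of each library's own covered fragments, the interval held 35.7% in thymocytes (95% Wilson interval 34.3 to 37.2). It held 26.7% and 19.2% in the WT pair and 23.4% and 18.6% in the GRko pair. Both Wilson intervals treat the fragments of the thymocyte library as independent trials and do not give the spread between libraries. The difference of GRko from WT was -1.97 points (exact permutation test, p = 0.667) and that of thymocytes from WT was 12.8 points (exact p = 0.333, the smallest possible).

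With the 1062 fragments of most reads taken from every library, so that each had the same number, the interval held 35.6% of them in thymocytes. It held 19.4% and 16.8% in the WT pair and 20.6% and 18.6% in the GRko pair. Thymocytes again stood above all 4 muscle libraries, and the 4 muscle libraries drew closer together. The difference of GRko from WT turned to 1.51 points in this setting, within the spread. Per step of 50 kb, both GRko libraries lay above both WT libraries in 3 of 17 steps (8.2% of all 61) and below both in 2 (9.84%).

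The region at the same distances on the higher-coordinate side (chr13:101851970-102699249, 2132 fragments) showed that muscle contacted the interval less than its counterpart. In WT muscle the counterpart held 48.9% and 46.9% of the reads and in GRko muscle 43.3% and 47.1%. In thymocytes it held 26.9%, below the 30.3% of the interval. The counterpart also holds non-coding genes and pseudogenes, and the coding gene Cd180, known from B cells, overlaps its far end.

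The log2 ratio of the covered share of fragments in the interval over that in the counterpart was -0.69 and -1.36 in WT, -1.01 and -1.37 in GRko muscle and 0.13 in thymocytes. All 4 muscle libraries lay below 0 and thymocytes above it. The muscle mean was -1.11 ± 0.326 (SD, n = 4; exact two-sided sign-flip permutation test, p = 0.13, the lowest value possible for 4 libraries; 0.583 adjusted over 7 tests). The difference of thymocytes from WT was 1.15 on the log2 scale (exact permutation p = 0.333, the smallest possible). That of GRko from WT was -0.17 (exact permutation p = 0.667) and was above 0 when each library gave an equal number of fragments (0.20). On reads in place of covered fragments the ratios were -1.64 and -1.46 in WT, -1.41 and -1.70 in GRko muscle and 0.22 in thymocytes. In covered fragments the ratios were lower in the shallower muscle libraries. When each library gave an equal number of fragments they were -1.37 and -1.62 in WT, -1.22 and -1.37 in GRko muscle and 0.12 in thymocytes.

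To place the contacts within the interval, it was divided into 17 steps of 50 kb counted from the Pik3r1 end, so that step 1 is next to the gene and step 17, of 47.3 kb, next to Slc30a5. Contacts were densest near Pik3r1 and thinner with distance, but not evenly. Steps 1 to 5 (86 to 336 kb from the bait) held 42.6% of the interval's reads in thymocytes, 44.5% and 57.7% in the WT pair and 37.0% and 46.6% in the GRko pair, on 609 fragments. Steps 13 to 17, with 612 fragments, held 21.6% in thymocytes, 21.4% and 18.1% in the WT pair and 27.2% and 10.5% in the GRko pair. Reads per fragment were thus 1.98 times as high in the near as in the far steps in thymocytes, 2.09 and 3.204 times in WT and 1.37 and 4.47 times in GRko muscle. In the counterpart this ratio was 2.29 in thymocytes, 2.04 and 1.36 in the WT pair and 1.85 and 1.89 in the GRko pair, so in WT replicate 2 and GRko replicate 2 alone the interval's ratio was more than 1.5 times that of its counterpart.

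**Figure D2:**
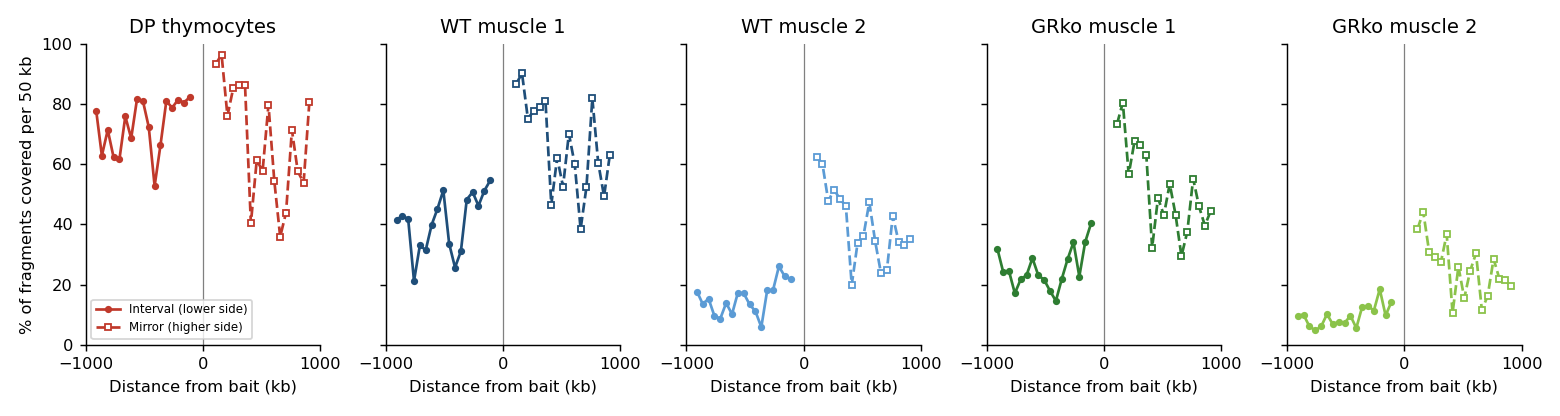
Percent of fragments covered per 50 kb step against the distance from the bait in kb, 1 line per library, in the interval and on the other side. In the interval thymocytes lay between 52.8% and 82.3% and no muscle library exceeded 54.6%.

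In thymocytes the share of fragments covered ran from 52.8% in step 7 to 82.3% in step 1, with a median of 75.9% over the steps. In WT muscle it ran from 21.2% to 54.6% and from 5.88% to 26.1%, and in GRko muscle from 14.6% to 40.3% and from 4.79% to 18.5%. The step of fewest covered fragments, for its size, was step 7 in thymocytes and GRko replicate 1, step 14 in WT replicate 1 and GRko replicate 2, and step 6 in WT replicate 2. Step 7 lies 386 to 436 kb from the bait, and the only annotated gene in it is the pseudogene Gm2534, which is 0.431 kb long and holds no fragment midpoint. Of its 144 fragments, 43.1% were covered in no library, the highest share of the 17 steps, against 22.0% over the interval. The median length of its fragments was 235 bp, and 29.2% were shorter than 100 bp, against 17.1% to 29.3% over the steps.

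All 17 steps were covered less than their counterpart in each of the 4 muscle libraries. The step medians of the log2 ratio were -0.67 and -1.40 in the WT pair and -0.995 and -1.42 in the GRko pair. In thymocytes 10 steps were covered more than their counterpart and 7 less, with a median of 0.10. The thymocyte steps covered less lay mostly at the near end, with steps 1, 2, 4, 5 and 6 among them together with 14 and 17. On the near side the counterpart was nearly full in thymocytes, with 96.5% of the fragments covered opposite step 2, which limits how far it could rise.

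**Figure D3:**
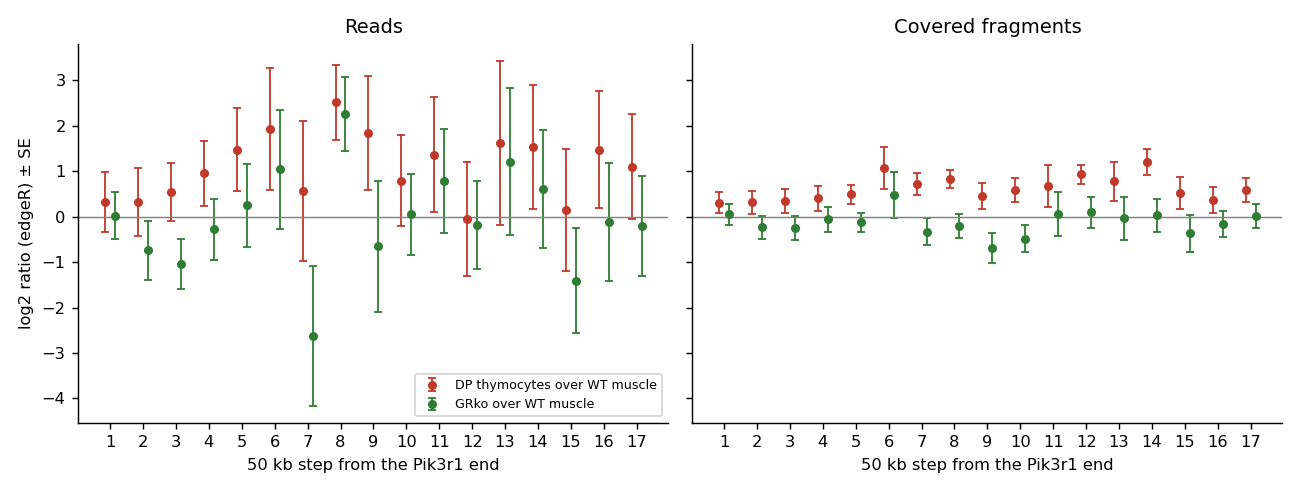
Log2 ratio (edgeR) with bars of the SE derived from the test in each 50 kb step of the interval, with reads and covered fragments side by side. Shown are thymocytes over WT muscle and GRko over WT muscle. In covered fragments all 17 ratios of thymocytes over WT lay above 0, beside 30 of the 59 steps tested. Those of GRko over WT lay on both sides of 0. No step passed the test in the main fits.

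In reads the step that held most differed between libraries. It was step 3 in thymocytes (3.28% of the reads within 1.5 Mb) and in WT replicate 2 (3.45%), step 4 in WT replicate 1 (2.32%), step 1 in GRko replicate 1 (2.10%) and step 8 in GRko replicate 2 (2.67%). Step 3 spans chr13:101530761-101580760 and holds the non-coding genes LOC105245613, Gm36475 and Gm41043 and the pseudogene Gm19010. In WT replicate 2 a single fragment supplied 27689 of the 46164 reads of this step.

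**Figure D4:**
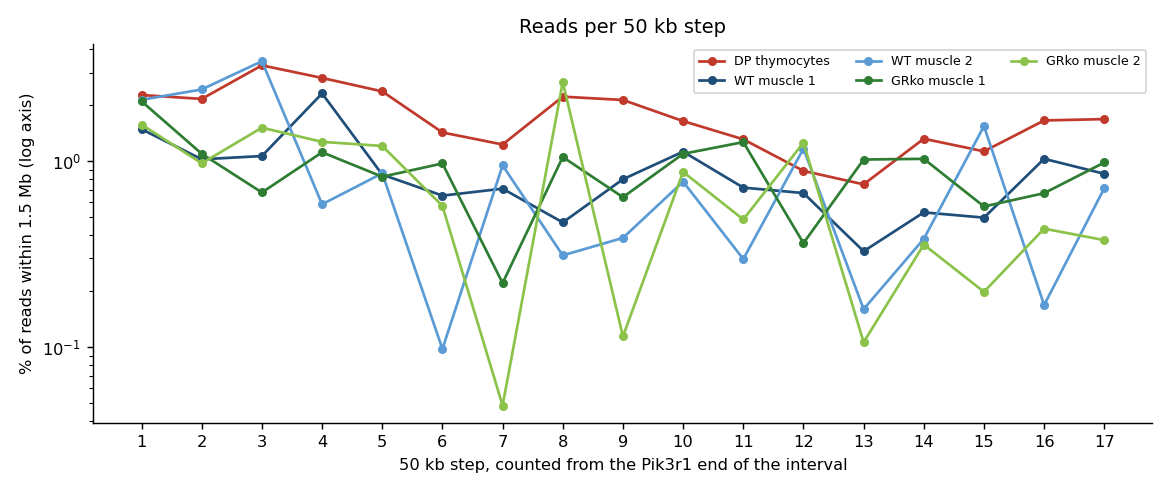
Percent of the reads within 1.5 Mb in each 50 kb step of the interval, 1 point per library, with step 1 next to Pik3r1. Thymocytes stood above all 4 muscle libraries in 11 of 17 steps, beside 24.6% of all 61 steps, and step 8 was highest in GRko replicate 2 at 2.67%.

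Between the muscle genotypes no step passed the test in reads. With edgeR's quasi-likelihood test fitted over all steps within 1.5 Mb, 0 of 17 steps had an adjusted p under 0.05, beside 0% of the 60 steps tested, 1 of 17 was under 0.05 before adjustment, and the count from DESeq2 was 0. The log2 ratio of GRko over WT was above 0 in 8 steps and below 0 in 9, with a median of -0.11 against -0.19 over all 60 steps. This median was 0.07 with TMM, 0.11 with DESeq2, and -0.36 without GRko replicate 1, where 4 steps were above 0 and 13 below. Both GRko libraries lay above both WT libraries in 1 step, step 8 (8.2% of all 61 steps), and below both in 1, step 7 (19.7%).

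Step 8 (chr13:101280761-101330760) holds the start of the non-coding RNA gene Gm36427, whose start region is printed above, and the end of 4933416M06Rik. It held 13540 and 4162 reads in WT, 17895 and 16939 in GRko muscle and 109063 in thymocytes. As shares of reads these were 0.468% and 0.311% in the WT pair, 1.05% and 2.67% in the GRko pair and 2.22% in thymocytes. Both GRko libraries were above both WT libraries, and GRko replicate 2 was above thymocytes. The log2 ratio of GRko over WT was 2.26 ± 0.818 (SE, here and below derived from the edgeR test), with an adjusted p of 0.315. Without GRko replicate 1 the adjusted p was 0.0191 and step 8 was the 1 of 17 called, beside 5% of the 60 steps tested. That fit has 1 GRko library, which is assumed to vary like the WT pair.

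The reads of step 8 in GRko replicate 2 came from few fragments. The most-read of them, at 101290820 within Gm36427 and 4933416M06Rik, held 6667 reads there, 85 in GRko replicate 1, 50 and 0 in WT and 88 in thymocytes. The next, at 101307251, held 5840, against 2 in GRko replicate 1, 0 and 0 in WT and 892 in thymocytes. Of the fragments of step 8, 45 and 18 of 134 were covered in WT and 24 and 13 in GRko muscle (log2 ratio -0.21 ± 0.266, adjusted p 0.970).

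Step 7 had the lowest ratio of GRko over WT. Its share of reads was 0.712% and 0.949% in the WT pair, 0.221% and 0.0484% in the GRko pair and 1.23% in thymocytes. The log2 ratio was -2.62 ± 1.53 (SE; edgeR adjusted p 0.768). One fragment at 101343182 supplied 9648 of the 12693 reads in WT replicate 2 and had 0 in WT replicate 1 and in both GRko libraries. Steps 6 and 3 were the others of smallest p on either side, at 1.04 ± 1.31 (adjusted p 0.928) and -1.04 ± 0.551 (adjusted p 0.609), and neither passed the test.

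Counted as covered fragments, 0 of 17 steps passed between the genotypes in edgeR, beside 0% of 58 steps tested, with 0 at an unadjusted p under 0.05 and 0 called by DESeq2. In the percentage of fragments covered, which moves with depth, both GRko libraries lay below both WT libraries in 1 step, step 3 (6.56% of all 61 steps), and above both in 0 (0%). The median log2 ratio was -0.13 over the 17 steps and -0.04 over all steps. Its sign was not stable: it was 0.22 with an equal number of fragments per library, 0.18 without WT replicate 1 and -0.43 without GRko replicate 1. The ratios of smallest p were 0.48 ± 0.503 in step 6 and 0.09 ± 0.334 in step 12 above 0, and -0.69 ± 0.333 in step 9 and -0.48 ± 0.302 in step 10 below it, all with an adjusted p of 0.970. Step 9 lies within Gm36427 and step 10 holds its far end, next to step 8, where the ratio in reads was the highest. In step 8 the sign in covered fragments depended on the setting, since with an equal number of fragments per library the log2 ratio was 0.27 ± 0.441.

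Between thymocytes and WT muscle most steps had ratios above 0, and none passed the test. In reads, edgeR gave an adjusted p under 0.05 in 0 of 17 steps, beside 1.67% of the 60 steps tested, a p under 0.05 before adjustment in 1, and the count from DESeq2 was 0. The log2 ratio was above 0 in 16 of 17 steps with a median of 1.10, against a median of -0.10 over all 60 steps. TMM rescales whole libraries and moved both medians up together, to 1.34 and 0.14. The thymocyte library has no replicate and was assumed to vary like the muscle libraries.

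Thymocytes stood above all 4 muscle libraries in 11 of 17 steps in reads, beside 24.6% of all 61 steps. The exceptions were steps 2, 3, 8, 12, 13 and 15. In fragments covered, thymocytes stood above all muscle libraries in 17 of 17 steps, beside 70.5% of all 61 steps, where the greater depth of that library adds to the count. With an equal number of fragments taken per library it was 16 of 17, beside 34.4%.

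Step 8 had the highest ratio of thymocytes over WT, at 2.51 ± 0.829 (SE), with an adjusted p of 0.0894 in edgeR's test. It was called without GRko replicate 1 (adjusted p 0.00596, where 11.7% of all 60 steps were called), with TMM (0.0104) and with reads per fragment capped (0.0415, both with 1.67% of all steps called), and not in the other settings that kept steps of 50 kb. Step 5 (chr13:101430761-101480760), which holds no annotated gene, had 116437 reads in thymocytes, 24490 and 11506 in the WT pair and 14027 and 7658 in the GRko pair. Its ratio was 1.48 ± 0.905 (adjusted p 0.512), and one of its fragments, at 101446735, held 11653 reads in thymocytes, 157 and 0 in the WT pair and 0 and 0 in the GRko pair. Step 12 alone had a ratio below 0, at -0.05 ± 1.25 (adjusted p 0.982), and a fragment at 101095512 supplied 11472 of its 15612 reads in WT replicate 2. Without that library its ratio was 0.40.

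In covered fragments, all 17 ratios of thymocytes over WT were above 0, with a median of 0.59 against 0.14 over all 59 steps tested. None was called by edgeR (0% of the 59) or by DESeq2, and 4 had an unadjusted p under 0.05. Those of smallest p were step 12, at 0.93 ± 0.209, and step 14, at 1.20 ± 0.286, both with an adjusted p of 0.0986. In step 14, which holds the start of Gm41042 and the pseudogene Gm6114, 91 of 146 fragments were covered in thymocytes, 31 and 14 in the WT pair and 25 and 7 in the GRko pair. With TMM 3 of the 17 steps were called, beside 16.9% of the 59 steps tested, and with a minimum of 10 reads per fragment 1 of 17, beside 10.5% of 57. These shares are near or below those of all steps. With an equal number of fragments taken per library 0 were called and the median was 0.94, against -0.16 over all steps.

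Fewer single fragments were covered in all 5 libraries than on the other side of the bait, where muscle coverage was higher. In the interval, 454 fragments (22.0%) were covered in no library, 526 in 1, 576 in 2, 364 in 3, 121 in 4 and 18 (0.874%) in all 5. On the other side 245 of 2132 (11.5%) were covered in all 5. Thymocytes alone covered 436 fragments of the interval (21.2%), and 115 (5.58%) were covered in muscle and not in thymocytes. The thymocyte library had 4172 covered fragments within 1.5 Mb against 1062 to 3100 in muscle, and such depth raises the first count and lowers the second. Matching shares outside the interval were not computed, so whether these counts are particular to it cannot be told. The 18 fragments covered in all 4 muscle libraries were all covered in thymocytes too.

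WT replicates 1 and 2 shared 177 covered fragments, which were 21.4% of those of replicate 1 and 56.5% of those of replicate 2. On the other side they shared 729, or 52.9% and 87.7%. GRko replicates 1 and 2 shared 83, or 16.1% and 42.1%, and on the other side 399, or 37.1% and 75.7%. WT replicate 1 covered 40.2% of the interval's fragments and 64.7% on the other side, so fewer shared fragments go with a thinner coverage. With an equal number of fragments taken per library within 1.5 Mb, the WT replicates held 206 and 178 in the interval and 552 and 565 on the other side. They shared 41 in the interval (19.9% and 23.0%) and 241 on the other side (43.7% and 42.7%). Coverage of the interval was thus still the thinner in this setting. The sharing that coverage alone would give was not computed.

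Among the 18 fragments covered in all 5 libraries, the one with the highest lowest count lay at 101174687, 592 kb from the bait in step 11 and outside annotated genes. It held 155 reads in thymocytes, 199 and 179 in the WT pair and 44 and 314 in the GRko pair. The next, at 101507484 in step 4, held 2324 in thymocytes, 1669 and 32 in the WT pair and 474 and 786 in the GRko pair. That at 101668716 in step 1 held 1884 in thymocytes, 81 and 53 in the WT pair and 2705 and 17 in the GRko pair. Within groups these counts differed by up to more than 100-fold, so a single fragment gave no stable level. The other 7 of the 10 highest lay in steps 5, 16, 8, 16, 1, 6 and 13, with lowest counts of 11, 6, 5, 4, 4, 3 and 2, and that of step 13, at 101073431, lay in Gm41042. A fragment of step 3, at 101539944 in LOC105245613, tied with the last at a lowest count of 2, and held 3286 reads in thymocytes, 1889 and 2 in the WT pair and 3491 and 1612 in the GRko pair.

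A few fragments supplied much of the reads in the shallower libraries. The 10 most-read fragments of each library held 6.69% of its reads in the interval in thymocytes, 16.1% and 46.5% in the WT pair and 22.6% and 45.0% in the GRko pair. The most-read fragment of WT replicate 2, at 101570260 in step 3, held 27689 reads (12.6% of its reads in the interval), beside 0 in WT replicate 1, 3210 and 6 in GRko muscle and 5845 in thymocytes. Its second, at 101626795, held 12887 reads and 0 in every other library. In thymocytes the most-read fragment, at 101538616 in LOC105245613, held 13084 reads, beside 1492 and 10 in the WT pair and 0 and 0 in the GRko pair. No fragment was thus the most-read in more than 1 library.

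Uncovered stretches were longest far from Pik3r1. The longest distance between covered fragments was 7.48 kb in thymocytes, 15.4 and 23.8 kb in WT and 12.3 and 33.0 kb in GRko muscle. In WT replicates 1 and 2 and GRko replicate 1 it lay 711 to 735 kb from the bait, and the 3 stretches overlapped one another in the part of step 13 that lies within Gm41042. In thymocytes and GRko replicate 2 they lay 838 and 816 kb from the bait at their nearer ends. On the other side of the bait the longest were 14.0 kb in thymocytes, 14.2 and 14.6 kb in WT and 15.1 and 18.6 kb in GRko muscle.

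The length of a fragment went with its coverage in every library. Lengths were rebuilt from the midpoints and 29 known GATC sites, with a median error of 5.5 bp and a largest of 18 bp over 15 spans between known sites. For 15 of the 2059 fragments of the interval the rebuilt length was negative, which is impossible, and they were counted as under 100 bp. The median length was 274 bp in the interval and 256 bp on the other side. Of fragments under 100 bp, 37.9% were covered in thymocytes, 13.9% and 6.83% in the WT pair and 8.28% and 3.93% in the GRko pair. Of those of 800 bp and over, 91.5% were covered in thymocytes, 67.5% and 26.9% in the WT pair and 40.0% and 18.7% in the GRko pair. Of the 483 shortest fragments 52.8% were covered in no library, and of the 305 longest 5.25%.

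**Figure D5:**
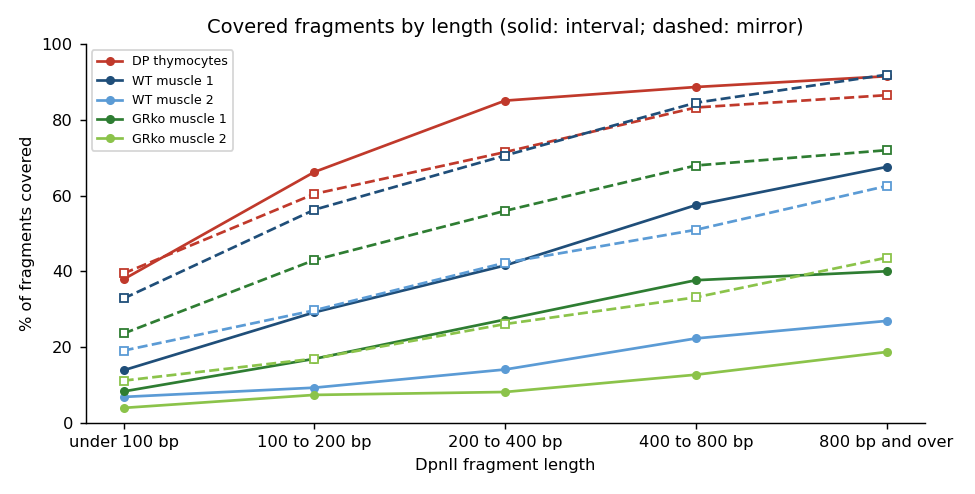
Percent of fragments covered by class of fragment length in bp, 1 line per library, in the interval and on the other side of the bait. Coverage was higher in each longer class in every library, and muscle lay below its values on the other side in every class.

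The ratio to the other side varied with the class of length. Muscle covered fewer fragments in the interval than on the other side in all 5 classes, and in WT replicate 1 the values ran from 13.9% against 32.8% under 100 bp to 67.5% against 91.9% at 800 bp and over. Thymocytes covered fewer only under 100 bp, with 37.9% against 39.4%, and more in the other 4 classes, with 85.1% against 71.5% at 200 to 400 bp.

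The 16 annotated genes held 545 of the 2059 fragments (26.5%). Of the fragments in genes and outside them, 74.9% and 71.5% were covered in thymocytes, 39.8% and 40.3% in WT replicate 1 and 13.9% and 15.7% in WT replicate 2. In GRko replicates 1 and 2 they were 23.3% and 25.8%, and 9.54% and 9.58%. Fragments in genes were covered slightly more often in thymocytes and slightly less often in muscle, and this difference was not tested. Reads per fragment, scaled to 1000000 reads within 1.5 Mb, were higher in genes in thymocytes (161.5 against 142.0) and GRko replicate 2 (90.3 against 60.2). They were lower in WT muscle (56.1 against 79.8, and 53.9 against 89.1) and alike in GRko replicate 1 (76.2 against 76.3).

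The longest genes of the interval are non-coding RNA genes. Gm41042 (chr13:100997184-101080021, 82.8 kb) held 1.74% of the reads within 1.5 Mb in thymocytes, 0.757% and 0.529% in the WT pair and 1.95% and 0.461% in the GRko pair. GRko replicate 1 was above thymocytes there and GRko replicate 2 was the lowest library. Gm36427 (chr13:101226219-101305888, 79.7 kb) held 3.43% in thymocytes, 1.05% and 0.669% in the WT pair and 1.10% and 2.12% in the GRko pair. Both GRko libraries were above both WT libraries, as in 8.2% of all 61 steps of 50 kb, and no share over all genes was computed. A fragment at 101290820 held 6667 of the 13444 reads of GRko replicate 2. Of the fragments of Gm36427, 42.9% and 13.3% were covered in the WT pair and 20.4% and 7.65% in the GRko pair. Within the span of Gm36427 lie 5930438M14Rik and 4933416M06Rik. The first held 0.829% in thymocytes, 0.396% and 0.112% in the WT pair and 0.549% and 0.0210% in the GRko pair. The second held 1.71% in thymocytes, 0.413% and 0.361% in the WT pair and 0.142% and 1.62% in the GRko pair. Both WT libraries lay between the GRko libraries at 4933416M06Rik.

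Nearer the bait, Gm36553 (chr13:101589833-101613282) held 1.31% in thymocytes, 0.472% and 0.440% in the WT pair and 0.722% and 0.892% in the GRko pair. Gm36475 (chr13:101540358-101566823) held 1.66% in thymocytes, 0.446% and 1.18% in the WT pair and 0.159% and 1.14% in the GRko pair. Thymocytes were highest in both. Both GRko libraries were above both WT libraries in Gm36553 and not in Gm36475, and no share over all genes was computed for this order. Of the fragments of Gm36553, 48.3% and 13.3% were covered in the WT pair and 31.7% and 11.7% in the GRko pair. LOC105245613, of 2.66 kb, had all 4 of its fragments covered in thymocytes, 4 and 3 in the WT pair and 2 and 3 in the GRko pair. Its scaled reads per fragment were 1193 in thymocytes, 396.9 and 305.9 in the WT pair and 532.5 and 674.2 in the GRko pair, the highest of the 16 genes in thymocytes and in both GRko libraries. In GRko replicates 1 and 2 a single fragment, at 101539944, supplied 3491 of its 3620 and 1612 of its 1710 reads. Gm41043 of 4.38 kb had 11 of 11 fragments covered in thymocytes, 4 and 4 in the WT pair and 4 and 3 in the GRko pair.

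The pseudogenes were short. Gm19010 had 1 fragment, with 3442 reads in thymocytes, 1282 and 106 in the WT pair and 0 and 190 in the GRko pair. Gm6114 had 3 fragments, with 433 reads in thymocytes, 0 and 414 in the WT pair and 0 and 0 in the GRko pair. Gm10257, on 2 fragments, was at 0 in all 5 libraries. Hmgb1-ps9 had 3 reads in thymocytes and 0 in muscle, and Gm41041 had 7 in thymocytes, 196 and 0 in the WT pair and 25 and 5 in the GRko pair. The non-coding Gm41040 had 4 in thymocytes, 15 and 0 in the WT pair and 0 and 0 in the GRko pair, and 4922502H24Rik had 10 of 13 fragments covered in thymocytes, 9 and 0 in the WT pair and 2 and 2 in the GRko pair. Reads of repeated or copied sequence can fail to map to a single place, and mappability was not tested.

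The genes at either end bound the interval. Pik3r1, which holds the bait, had 17.7% of the reads in thymocytes, 11.03% and 10.94% in the WT pair and 14.9% and 18.9% in the GRko pair, leaving out the nearest 10 kb. Slc30a5 at the far end had 1.19% in thymocytes, 0.511% and 1.01% in the WT pair and 0.514% and 0.0569% in the GRko pair. The Slc30a5 start region overlaps the far edge of the interval, and the 1 fragment over it held 114 reads in thymocytes and 0 in each muscle library.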

How the data were processed

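The deposited values are raw counts of reads for each DpnII fragment on chromosome 13; per the file headers, line 1 gives the bait's coordinate. Per the submitters' processing notes, bcl2fastq, Bowtie 1.0.0 and mm10 were used; the rule that gave a read to a fragment was not found in the labels or headers. Shares used the reads or covered fragments within 1.5 Mb of the bait, without the nearest 10 kb, as totals. All 61 steps of 50 kb were fitted together with edgeR 4.0.16 (quasi-likelihood; R 4.3.3; steps with at least 10 reads, or 3 covered fragments, in 2 libraries) and adjusted by Benjamini-Hochberg at 0.05; only the 17 in the interval are reported. GRko was compared with WT in the 4 muscle libraries, and thymocytes with WT in a fit of all 5. DESeq2 1.42.0, TMM, steps of 10 and 100 kb, 25 kb left out, a cap at the 99th percentile of reads per fragment, a minimum of 10 reads and each replicate left out were alternatives, and the scripts were tested on simulated data.

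Same-numbered replicates share a read length, per the labels. The correlation of their deviations was 0.115 in reads over 60 steps and 0.289 in covered fragments over 54.

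Named steps were up to 5 per direction past the threshold, or the 2 of smallest p in each direction. Named fragments were the 10 with the highest lowest count among those covered in all 5 libraries. All genes in the interval and both bounding genes were named, and per library the step of most reads and that of fewest covered fragments. Fragments were assigned to the interval by position, but the interval itself and the lists were picked for study with earlier results of these data known. Genes and windows came from RefSeq for GRCm38.p6, whose coordinates are those of mm10. The most-read fragments of each library were chosen after the values were seen.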

Additional observations from a re-analysis of the deposited data

How the results depend on the processing

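Over 11 main results and 108 alternatives, 93 kept their direction and their side of the threshold or stayed near the main count, 9 turned in direction and 6 moved in count. The thymocyte differences from WT in the shares and in the ratio to the other side kept their direction in every setting run. The share of reads of GRko minus WT was 0.202 points with capped reads and 0.575 with the 29 nt libraries alone, and ran from -1.74 to -0.0729 with 1 replicate left out. The share of covered fragments was 0.173 with all chromosome 13 as the total and 1.51 with the same number of fragments, and ran from -5.68 to 1.75 with 1 replicate left out (0.483 without GRko replicate 2, 1.75 without WT replicate 1). The log2 ratio to the other side, GRko minus WT, was 0.198 with the same number of fragments and ran from -0.501 to 0.170 with 1 left out (0.0157 without GRko replicate 2). The cause was not tested.

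Steps called in reads for GRko over WT went from 0 to between 0 and 1 with 1 replicate left out, with 1 without GRko replicate 1 (5% of all steps). For thymocytes over WT they were 1 with TMM, 1 with capped reads (1.67% of all steps in both) and 0 to 1 with 1 replicate left out (1 without GRko replicate 1, where 11.7% of all steps were called). In covered fragments for thymocytes they were 3 with TMM (16.9% of all steps) and 1 with at least 10 reads per fragment (10.5%). Step 3 in reads for GRko over WT was 0.0414 without WT replicate 2. Step 12 in reads for thymocytes over WT was 0.182 with TMM, 0.00752 with 25 kb left out, -0.396 to 0.397 with 1 replicate left out (0.397 without WT replicate 2), 0.0380 against all 4 muscle libraries and 0.0357 with capped reads. With the replicate block 0 steps were called in either measure between the genotypes, and the block changed no other call. Depth limits the 23 nt libraries most, with 1626 and 1062 covered fragments within 1.5 Mb.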
